A study of Mus musculus with 4 samples.

Results

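The collagen genes were taken as every gene whose symbol in the deposited table is Col, a number, a and a number, which gave 44 of the 55401 genes. By the form of collagen that their products build, 11 of them encode fibrillar collagens, 6 basement membrane collagens, 9 fibril-associated collagens of the FACIT class and 18 other collagens, which are anchoring fibril, beaded filament, multiplexin, short-chain network and transmembrane collagens and members outside these forms. Their transcripts were compared in RNA-seq data of mouse embryonic stem cells (mESCs) of the E14 line, with 2 libraries of wild-type (WT) cells and 2 libraries of cells without functional Haspin (Haspin-KO), the kinase that phosphorylates histone H3 at Thr3. All cells were grown in knockout DMEM with 15% fetal bovine serum, LIF and 2i, with no further treatment. The Haspin-KO cells were single clones obtained from the WT line with CRISPR/Cas9 and a pair of gRNAs and picked by the loss of the H3T3ph signal. The study describes 2 such lines, and the labels do not say from which line each library came or whether the libraries of a group were separate cultures, so that the p-values below measure only the spread between these libraries, which may be technical. The mESCs were passaged on a layer of mitomycin C-treated mouse embryonic fibroblasts and plated on gelatin for assays, and the sources used here do not say which applied to the cells taken for RNA.

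Collagens are secreted proteins of the extracellular matrix in which α chains wind around each other into a rope-like helix. Fibrillar collagens assemble into the banded fibrils of connective tissue, FACIT collagens sit on the surface of these fibrils, and type IV collagen forms the sheet-like network of basement membranes. Fibroblasts are the main makers of fibrillar collagen, whereas early embryonic cells, extraembryonic endoderm above all, deposit type IV collagen with laminin. Many collagen molecules are heterotrimers, so that genes for partner chains, such as Col1a1 and Col1a2, are usually read together.

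The libraries held 21834847 and 17452307 counts on genes for WT replicates 1 and 2, and 14207828 and 14436750 for Haspin-KO replicates 1 and 2. Collagen genes took between 347 and 494 counts per 1000000 (CPM) of them. A gene was taken as shown by a library only above a floor of 3 counts, which lay between 0.137 and 0.211 CPM. Haspin itself had 875 and 619 counts in WT cells and 149 and 209 counts in the Haspin-KO libraries, which is a log2 fold change of -1.60 (standard error, SE, 0.16, adjusted p = 0.00154 in edgeR's quasi-likelihood test). The markers of pluripotent cells that define an mESC were present at high level in all libraries, with Pou5f1, Dppa5a and Esrrb having the most counts, and edgeR and DESeq2 called 0 of the 10 markers changed (median log2 fold change -0.12), with 3 at an unadjusted p under 0.05, none of them over 2-fold. The log2 fold change was below 0 for 9 of the 10, against 50.6% of all genes tested.

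Of the 44 collagen genes, 27 had enough counts for edgeR's low-count filter and were tested, among 15580 genes in all. A gene was called when its adjusted p (Benjamini-Hochberg over all genes tested) was under 0.05 and its fold change over 2. In Haspin-KO cells, 8 collagen genes were called lower and 0 higher. With p unadjusted (under 0.05) and the same limit on fold, edgeR gave 8 lower and 1 higher (Col6a4). DESeq2 called 0 higher of the 15 collagen genes to which it gave an adjusted p. Col6a4 was not among these, so DESeq2 could not call it. The 8 genes were 29.6% of the collagen genes tested, out of the 44 in all, against 0.501% of all genes tested that were called lower and 0.327% called higher. They comprised 4 of the 10 fibrillar genes tested (Col1a1, Col1a2, Col3a1 and Col5a2), 1 of 3 basement membrane genes (Col4a5), 1 of 6 FACIT genes (Col12a1) and 2 of 8 other genes (Col6a3 and Col8a1). The median log2 fold change of the 27 genes was -0.31, against -0.0039 over all genes tested. Both Haspin-KO libraries lay below both WT libraries for 14 of the 27 genes, whereas this held for 26.9% of all genes tested. The 14 include all 8 called genes. Over the 19 genes not called, the median log2 fold change was 0.06. For 6 of these 19 both Haspin-KO libraries lay below both WT libraries, beside the 26.9% of all genes tested, and for 8 they lay above. The share of all genes tested that lay above is not given here. As the 19 genes are those left over by the same comparison, these values are a description. Of the 8 called genes, Col1a2, Col3a1, Col4a5, Col6a3, Col8a1 and Col12a1 had at most 9 counts in each Haspin-KO library and passed the filter through their WT counts, so that they could enter the test only as lower genes. As the RNA came from bulk cultures, fewer cells of a collagen-producing type and less collagen RNA per cell cannot be told apart.

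**Figure D1:**
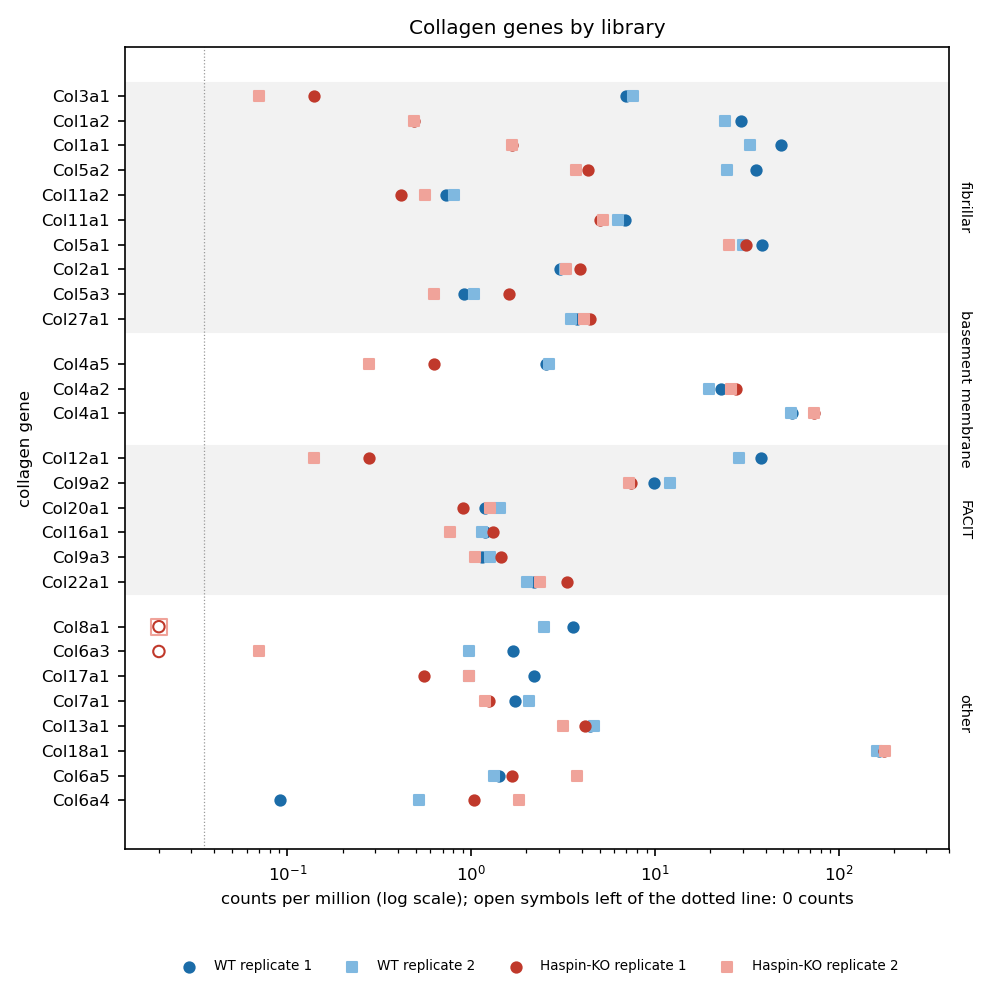
CPM (log axis) of the 27 collagen genes tested, grouped by class, with 1 point for each of the 4 libraries and open symbols at the left edge for a library with 0 counts. Red points lie far to the left of blue points for Col3a1, Col1a2, Col1a1, Col5a2, Col4a5, Col12a1, Col8a1 and Col6a3, while Col18a1, the highest gene, has all 4 points between 161 and 180.

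The following upstream regions are shown because they belong to collagen genes on either side of this division. Each is the stretch of 150 bases just before the annotated gene start, from RefSeq on GRCm38 (the mm10 build of the deposited table), with capitals marking TATAAA or GGGCGG on either strand. Col3a1 (chr1:45311388-45311537, plus strand) was called lower, Col5a1 (chr2:27886275-27886424, plus strand) encodes another fibrillar chain that was not called, and Col8a1 (chr16:57754738-57754887, minus strand) was called lower with 0 counts in Haspin-KO cells.
Col3a1: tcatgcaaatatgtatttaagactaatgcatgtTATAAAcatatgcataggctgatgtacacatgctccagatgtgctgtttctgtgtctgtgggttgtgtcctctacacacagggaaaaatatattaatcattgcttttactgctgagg
Col5a1: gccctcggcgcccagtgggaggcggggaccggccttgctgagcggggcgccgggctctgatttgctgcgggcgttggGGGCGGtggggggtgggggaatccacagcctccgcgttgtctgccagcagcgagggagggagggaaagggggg
Col8a1: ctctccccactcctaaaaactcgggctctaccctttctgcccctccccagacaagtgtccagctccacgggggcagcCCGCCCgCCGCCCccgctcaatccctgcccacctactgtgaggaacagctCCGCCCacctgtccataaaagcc

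The Col3a1 region had a GC content of 37.3% and held TATAAA, the Col5a1 region had a GC content of 74.7% and held GGGCGG, and the Col8a1 region had a GC content of 64.7% and held GGGCGG in its reverse complement, at 3 separate places. The RefSeq table held upstream regions for 35 of the 44 collagen genes, and those of Col1a1, Col5a2 and Col12a1 were not among them. TATAAA was found in 7.57%, CCAAT in 24.5% and GGGCGG in 28.6% of all 32851 regions, each on both strands, and the 3 regions shown hold no CCAAT. Over the collagen regions, the median GC content was 62.7% for genes called lower and 64.7% for genes not called. TATAAA was found for 1 of 5 genes called lower and 2 of 16 not called, and GGGCGG for 2 of 5 and 11 of 16. The low GC content of the Col3a1 region was thus not typical of the genes called lower. The regions shown were chosen among those without an annotated exon base, whereas other regions in these summaries hold exon bases. The region of Col1a2, a gene called lower, holds 125 exon bases, and its RefSeq start lies 804 bases from the gene start in the deposited table. Those of Col4a1, Col4a2, Col20a1, Col9a2 and Col6a4, which were not called, consist of exon bases over all 150. The matches are a description of the windows and were not tested against the counts.

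Among the fibrillar genes, Col1a1 and Col1a2, the chains of type I collagen, fell in Haspin-KO cells, as did Col3a1, the single chain of type III collagen, and Col5a2, a chain of type V collagen. Col1a1 (ENSMUSG00000001506, chromosome 11 of mm10, from 94936224 to 94953042) had 1063 and 575 counts in the WT libraries and 24 counts in each Haspin-KO library. These are 40.8 ± 10.9 CPM in WT cells against 1.67 ± 0.00699 CPM in Haspin-KO cells (SD, n = 2). The difference was -4.61 on the log2 scale (SE 0.24), with an adjusted p of 2.12e-05 from edgeR. Both Haspin-KO libraries stood far below both WT libraries, and the WT libraries were themselves unequal, with the higher level in replicate 1.

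Col1a2 (ENSMUSG00000029661, chromosome 6, from 4504814 to 4541544) had 645 and 419 counts in WT cells and 7 counts in each Haspin-KO library. Between the groups, the level differed by -5.76 on the log2 scale (SE 0.24, adjusted p = 7.83e-06). The libraries of the groups did not overlap for either type I chain. Col3a1 (ENSMUSG00000026043, chromosome 1, from 45311538 to 45349706) had 152 and 132 counts in WT cells and only 2 and 1 counts in Haspin-KO cells, which are under the floor. The ratio of WT to Haspin-KO CPM was 69.2, with a 95% counting interval from 23.4 to 338. The fitted log2 fold change, which at so few counts depends on the prior count, was -6.02 (SE 0.40), with an adjusted p of 0.000129 from edgeR. Col5a2 (ENSMUSG00000026042, chromosome 1, from 45374321 to 45503282) kept more of its level, with 781 and 427 counts in WT cells against 62 and 53 in Haspin-KO cells. It fell by 2.91 on the log2 scale (SE 0.21, adjusted p = 0.000192).

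The other 6 fibrillar genes tested were not called. Col5a1, whose product pairs with that of Col5a2 in type V collagen, had 842 and 522 counts in WT cells and 448 and 362 in Haspin-KO cells, or 38.5, 30.1, 31.1 and 25.3 CPM. The groups overlapped, and the log2 fold change was -0.28, with a 95% interval from -0.61 to 0.05 and an adjusted p of 0.305. Col11a1, a chain of the cartilage collagen type XI, had 150 and 109 counts in WT cells and 72 and 75 in the Haspin-KO libraries (log2 fold change -0.36, adjusted p = 0.325). Col2a1, the chain of type II collagen in cartilage, had 67 and 56 counts against 56 and 47 (log2 fold change 0.19, 95% interval -0.36 to 0.75). Col27a1 had 82 and 61 counts against 64 and 59, Col5a3 had 20 and 18 against 23 and 9, and Col11a2 had 16 and 14 against 6 and 8, with log2 fold changes of 0.24, 0.20 and -0.64. The remaining fibrillar gene, Col24a1, had 1 or 2 counts in each library and was not tested.

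**Figure D2:**
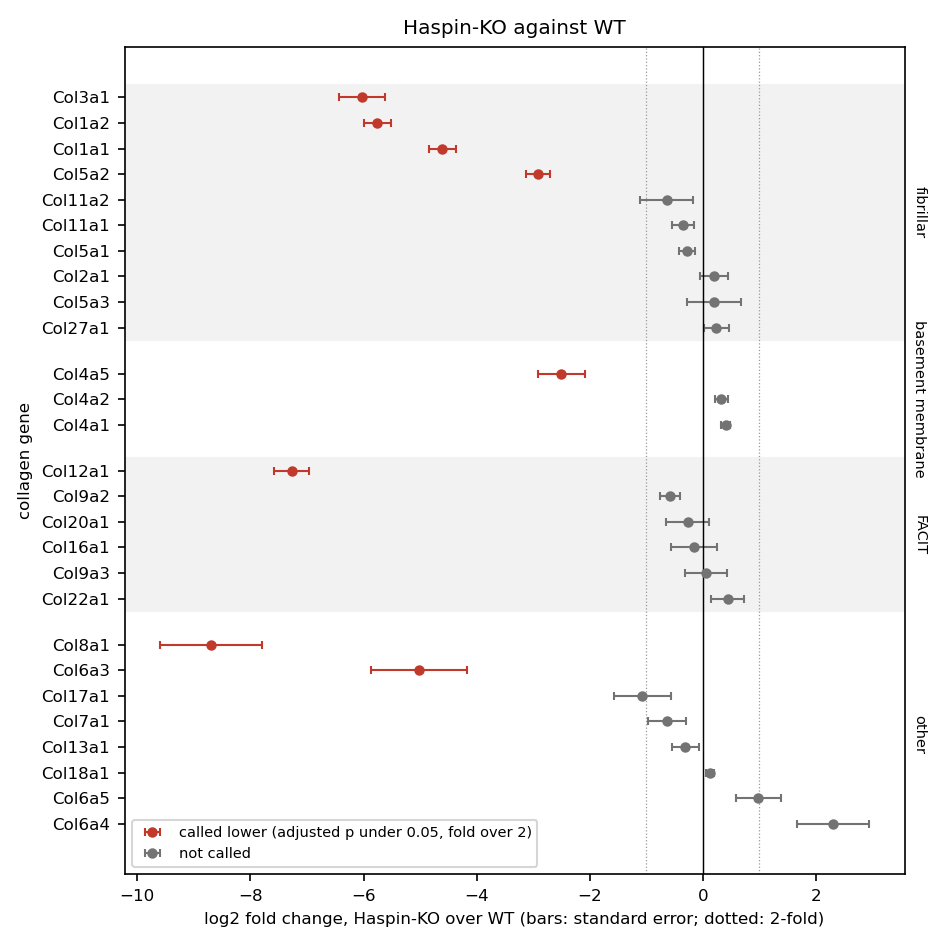
Log2 fold change of Haspin-KO over WT for the 27 collagen genes tested, grouped by class and sorted within it, with bars of 1 standard error from edgeR and dotted lines at a 2-fold change. The 8 genes called lower lie between -8.69 and -2.50, and the 19 genes not called lie between -1.07 and 2.30.

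Col3a1 and Col5a2 are neighbours on chromosome 1, on opposite strands with 24614 bases between their ends, and both fell. The paired type IV genes on chromosome 8, Col4a1 and Col4a2, share 22 bases at their starts, and neither was called. On the X chromosome, Col4a5 fell while its neighbour Col4a6, 1308 bases away, had 0, 3, 0 and 0 counts in WT replicates 1 and 2 and Haspin-KO replicates 1 and 2. Neighbours thus include a pair that fell together and a pair that was not called, and the pairs are too few for a comparison.

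Among the basement membrane genes, Col4a1 and Col4a2, which encode the common chains of type IV collagen in all basement membranes, did not fall in Haspin-KO cells. Col4a1 (ENSMUSG00000031502, chromosome 8, from 11198423 to 11312826) had 1226 and 956 counts in WT cells and 1058 and 1050 in Haspin-KO cells, which are 55.5 ± 0.688 and 73.5 ± 0.0875 CPM (SD, n = 2). Both Haspin-KO libraries were above both WT libraries, and the difference of 0.40 on the log2 scale (SE 0.08, adjusted p = 0.0359) passed the threshold on p but not that on fold. Without WT replicate 1 and without WT replicate 2, the adjusted p of Col4a1 was 0.161 and 0.138, at log2 fold changes of 0.41 and 0.39. Col4a2 had 499 and 343 counts in WT cells and 399 and 369 in Haspin-KO cells, with a difference of 0.33 on the log2 scale (95% interval 0.05 to 0.60, adjusted p = 0.172).

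Col4a5 (ENSMUSG00000031274, chromosome X, from 141475385 to 141689234), a type IV chain of more specialised basement membranes, had 56 and 46 counts in WT cells and 9 and 4 in Haspin-KO cells. It fell by 2.50 on the log2 scale (SE 0.42, adjusted p = 0.0198), and the groups did not overlap. The call was lost without either WT library, with adjusted p of 0.0993 without replicate 1 and 0.10 without replicate 2, at log2 fold changes of -2.53 and -2.48. Col4a3, Col4a4 and Col4a6, the remaining type IV genes, had at most 3 counts in any library and were not tested.

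In the FACIT class, Col12a1 had the largest fitted fall among the collagen genes with counts in every library. Col12a1 (ENSMUSG00000032332, chromosome 9, from 79598991 to 79718831), whose product binds type I collagen fibrils, had 831 and 501 counts in WT cells and 4 and 2 in Haspin-KO cells. It fell by 7.27 on the log2 scale (SE 0.31, adjusted p = 7.83e-06), and the ratio of WT to Haspin-KO CPM was 162, with a 95% counting interval from 74.4 to 443. This interval overlaps that of Col3a1 (23.4 to 338), so the order of these genes is not settled. Col9a2, a chain of the cartilage collagen type IX, had 216 and 211 counts in WT cells and 107 and 103 in the Haspin-KO libraries, and its log2 fold change was -0.58 with a 95% interval from -0.98 to -0.19 and an adjusted p of 0.108. Both of its Haspin-KO libraries lay below both WT libraries without a call. Col9a3, Col16a1, Col20a1 and Col22a1 had 11 to 48 counts in each library and log2 fold changes between -0.27 and 0.44. Exons of Col9a3 overlap those of Tcfl5 on the opposite strand over 234 bases and exons of Col20a1 overlap those of BX649560.1 over 79 bases, and no source says that strand was used in counting, so reads on these stretches cannot be assigned with certainty. Col14a1, with 9, 10, 8 and 7 counts in the order of the libraries above, Col9a1, with 2 counts in 1 Haspin-KO library, and Col19a1, with 0 counts in every library, were not tested.

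Among the other collagens, Col18a1, whose product carries the endostatin domain and resides in basement membranes, was the most abundant collagen transcript and was not called. Col18a1 (ENSMUSG00000001435, chromosome 10, from 77052178 to 77166548) had 3614 and 2802 counts in WT cells and 2547 and 2568 in Haspin-KO cells. The groups differed by 0.13 on the log2 scale, with a 95% interval from -0.03 to 0.28 (adjusted p = 0.334), so that a 2-fold change lay outside the interval. Col8a1 (ENSMUSG00000068196, chromosome 16, from 57624258 to 57754737), a chain of the short-chain collagen type VIII of vessel walls and cornea, had 78 and 43 counts in WT cells and 0 in both Haspin-KO libraries. Its level was at least 14.4-fold lower there, computed against the floor of 3 counts per library (adjusted p = 0.00357). Its partner Col8a2 had 0, 3, 3 and 4 counts and was not tested.

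Type VI collagen forms beaded filaments from the products of Col6a1, Col6a2 and Col6a3. Col6a3 (ENSMUSG00000048126, chromosome 1, from 90765923 to 90843971) had 37 and 17 counts in WT cells and 0 and 1 in Haspin-KO cells. The ratio of WT to Haspin-KO CPM was 39.5, with a 95% counting interval from 6.79 to 1587, and the adjusted p was 0.0203. The call was lost without WT replicate 1 (adjusted p = 0.149) and without WT replicate 2 (adjusted p = 0.0569), at log2 fold changes of -4.52 and -5.33, and with a filter of at least 1 CPM on average Col6a3 was not tested. Col6a1, with 16, 7, 0 and 1 counts, and Col6a2, with 8, 8, 1 and 2 counts, did not pass the filter. With no filter, Col6a1 was called lower as well (log2 fold change -3.82, adjusted p = 0.0263).

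The genes of the alternative type VI chains lie in a row on chromosome 9, and none of them was called. Col6a4 had 2 and 9 counts in WT cells and 15 and 26 in the Haspin-KO libraries. The fitted difference was 2.30 on the log2 scale (SE 0.64, adjusted p = 0.0904), and the groups did not overlap. Col6a4 passed the filter through its Haspin-KO counts, so that it could enter the test only as a higher gene. Col6a4 was called higher with the replicate number as a block (adjusted p = 0.000194), with no filter on low counts (adjusted p = 0.00516) and without Haspin-KO replicate 1 (adjusted p = 0.00500). It was not called without WT replicate 1 (log2 fold change 1.45, adjusted p = 0.437), without WT replicate 2 (3.86, adjusted p = 0.110) or without Haspin-KO replicate 2 (1.84, adjusted p = 0.194), so that the size of the difference rested on single libraries with few counts. Col6a5 had 31 and 23 counts in WT cells and 24 and 54 in the Haspin-KO libraries, a difference of 0.98 on the log2 scale (adjusted p = 0.210) that rested on Haspin-KO replicate 2, since it was 0.28 without that library. Without Haspin-KO replicate 1, the log2 fold change of Col6a5 was 1.46 (adjusted p = 0.00852). Col6a6, the remaining gene of the row, had at most 1 count in any library.

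Transmembrane collagens and the collagen of anchoring fibrils were not called. Col13a1, found at cell adhesion sites, had 97 and 81 counts in WT cells and 60 and 45 in Haspin-KO cells (fold change on the log2 scale -0.31, adjusted p = 0.488). Col17a1, a hemidesmosome component, had 48 and 17 counts against 8 and 14 (log2 fold change -1.07, adjusted p = 0.260, and -0.35 without WT replicate 1 and -1.54 without Haspin-KO replicate 2), and Col7a1, which forms anchoring fibrils beneath the epidermis, had 38 and 36 against 18 and 17 (log2 fold change -0.63). The Haspin-KO libraries lay below the WT libraries for Col13a1 and Col7a1, whereas for Col17a1, counted among the 14 genes above, the lower WT and the higher Haspin-KO library both had 0.979 CPM and differed by less than this rounding. Col10a1, Col15a1, Col23a1, Col25a1, Col26a1 and Col28a1 had between 0 and 12 counts in a library and were not tested. Of these, Col15a1, the relative of Col18a1, had 0 counts in both WT libraries and 5 and 2 in Haspin-KO cells.

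The levels of different collagen genes were compared as FPKM (fragments per kilobase of exonic length, scaled to the library total). Col18a1 was first in all 4 libraries, with 23.2 ± 0.495 FPKM in WT cells against 25.4 ± 0.134 FPKM in Haspin-KO cells (SD, n = 2), and Col4a1 was second in all 4, with 7.43 ± 0.127 and 9.86 ± 0.170 FPKM. In WT cells Col1a1 came next, with 7.42 and 5.02 FPKM, a range that overlaps that of Col4a1. Col5a1, Col5a2, Col4a2 and Col9a2 followed with 2.55 to 4.51 FPKM, and the ranges of each pair of them overlapped except those of Col5a1 and Col4a2. In Haspin-KO cells the order after Col4a1 was Col4a2 (4.24 and 3.86 FPKM), Col5a1 (3.68 and 2.93 FPKM) and Col9a2 (2.43 and 2.31 FPKM), without overlap between neighbours. Col1a1 was then at rank 13 and 14, with 0.26 and 0.25 FPKM.

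Summed over its genes, the fibrillar class had 20.2 and 15.2 FPKM in the WT libraries and 5.93 and 4.87 FPKM in the Haspin-KO libraries. The FACIT class had 6.71 and 6.88 against 3.66 and 3.30 FPKM, the basement membrane class 11.3 and 10.7 against 14.3 and 13.6 FPKM, and the other collagens 26.2 and 25.2 against 27.2 and 27.1 FPKM. The groups did not overlap for any class, and with 2 libraries against 2 an exact permutation test cannot give a two-sided p below 0.333. All collagen genes together had 64.5 and 58.0 FPKM in WT cells and 51.2 and 48.9 FPKM in Haspin-KO cells. The share of the 8 called genes in this sum was 27.5% and 22.3% in WT cells and 1.70% and 1.51% in Haspin-KO cells, so that 19 genes that were not called and 17 that were not tested made up nearly all collagen transcripts in Haspin-KO cells. As these 8 genes were chosen by the same comparison, their share is a description.

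**Figure D3:**
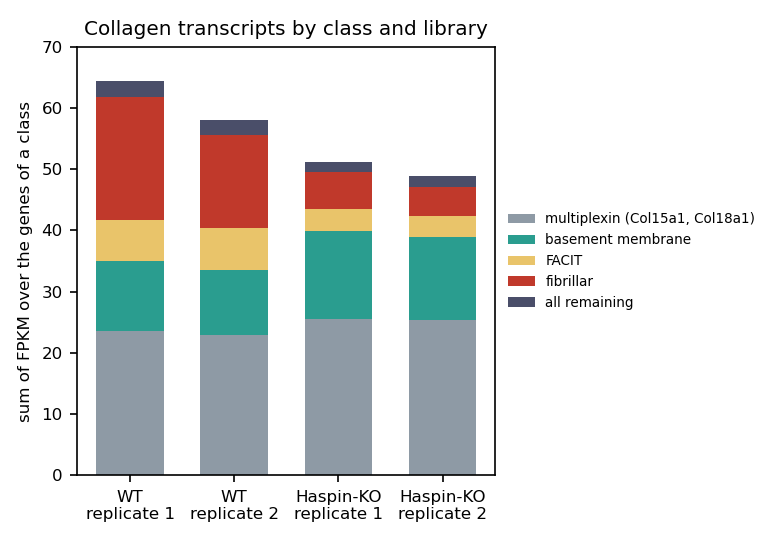
Sum of FPKM over the collagen genes of a class in each of the 4 libraries, as stacked bars that start at 0, with Col15a1 and Col18a1 drawn apart from the remaining other collagens. The fibrillar part shrinks from 20.2 and 15.2 in the WT libraries to 5.93 and 4.87 in the Haspin-KO libraries, and the basement membrane part is 11.3, 10.7, 14.3 and 13.6.

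The ratio between partner chains was computed per library from counts per kilobase of exonic length. The ratio of Col5a1 to Col5a2 was 1.21 in WT replicate 1 (95% counting interval 1.09 to 1.33) and 1.37 in WT replicate 2 (1.20 to 1.56), against 8.10 (6.20 to 10.7) and 7.65 (5.72 to 10.4) in the Haspin-KO libraries. The Haspin-KO intervals lay above the WT intervals. The ratio uses the same counts by which Col5a2 was called and Col5a1 was not, so it is a description. For type I collagen, the ratio of Col1a1 to Col1a2 was 3.12 (2.83 to 3.45) and 2.60 (2.29 to 2.95) in WT cells and 6.49 (2.71 to 17.8) in each Haspin-KO library, with intervals that overlapped those of WT. For type IV collagen, the ratio of Col4a1 to Col4a2 was 2.18 and 2.47 in WT cells and 2.35 and 2.52 in Haspin-KO cells, and the groups overlapped. The intervals cover counting error only.

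**Figure D4:**
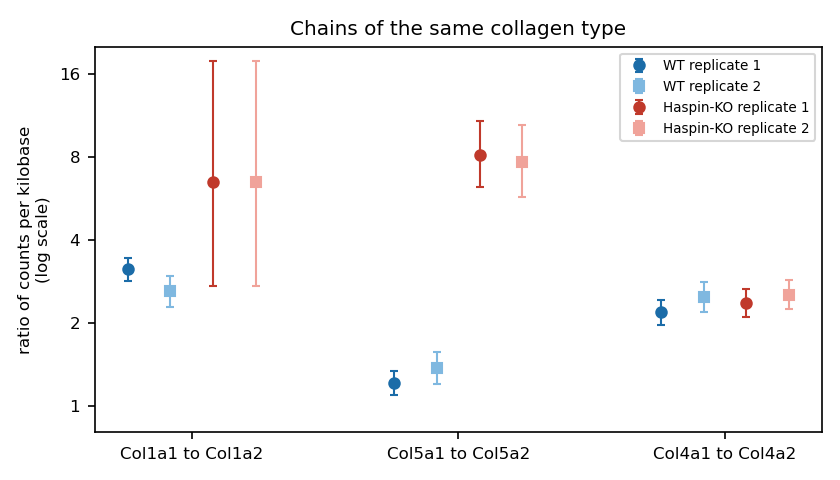
Ratio of counts per kilobase between partner chains (log axis) in each of the 4 libraries, with bars for the exact 95% counting interval. The Col5a1 to Col5a2 ratio is 1.21 and 1.37 in the WT libraries and 8.10 and 7.65 in the Haspin-KO libraries, while the Col4a1 to Col4a2 ratio lies between 2.18 and 2.52 in all 4.

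WT replicate 1 was next compared with WT replicate 2, a comparison of 2 libraries without a test. The WT libraries also enter the comparison with Haspin-KO, so the values are given side by side. The median log2 ratio of replicate 1 to replicate 2 over the 27 collagen genes was 0.04, against 0.00042 over all genes tested, and 16 of the 27 genes were higher in replicate 1. Of all genes tested, 50.1% were higher in replicate 1. The 5th and 95th percentiles of their log2 ratios were -0.47 and 0.56. Over the 8 genes that fell in Haspin-KO cells the median was 0.45, with 6 of 8 higher in WT replicate 1, and over the 19 genes not called it was 0.03, with 10 of 19 higher. The log2 ratio was 0.55 for Col1a1, 0.54 for Col5a2, 0.40 for Col12a1 and 0.29 for Col1a2, with log2 fold changes in Haspin-KO cells of -4.61, -2.91, -7.27 and -5.76. It was 0.72 for Col6a3 and 0.51 for Col8a1, but -0.13 for Col3a1 and -0.05 for Col4a5, so not every gene of the group was higher in WT replicate 1. Of the 8 genes, Col6a3 alone lay outside the 5th to 95th percentiles of all genes tested, which include genes with few counts. The 95% counting interval of the unlogged ratio lay above 1 for Col1a1 (1.32 to 1.63), Col5a2 (1.29 to 1.64), Col12a1 (1.18 to 1.47) and Col1a2 (1.08 to 1.38). It included 1 for Col6a3 (0.949 to 3.27), Col8a1, Col3a1 and Col4a5. Among the genes not called, Col5a1 had a log2 ratio of 0.35, Col4a1 of 0.03 and Col18a1 of 0.03.

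Between the Haspin-KO libraries, the median log2 ratio of replicate 1 to replicate 2 was 0.11 over the 8 called genes and 0.07 over the 27 genes. A difference of more than 2-fold between the WT libraries was found for 2 of the 27 genes, Col6a4 (log2 ratio -1.60) and Col17a1 (1.08), against 1.93% of all genes tested. Between the Haspin-KO libraries it was found for 2 genes, Col5a3 (1.20) and Col6a5 (-1.12), against 3.45% of all genes tested. All 4 genes had at most 54 counts in a library, and none was among the 8 called genes.

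**Figure D5:**
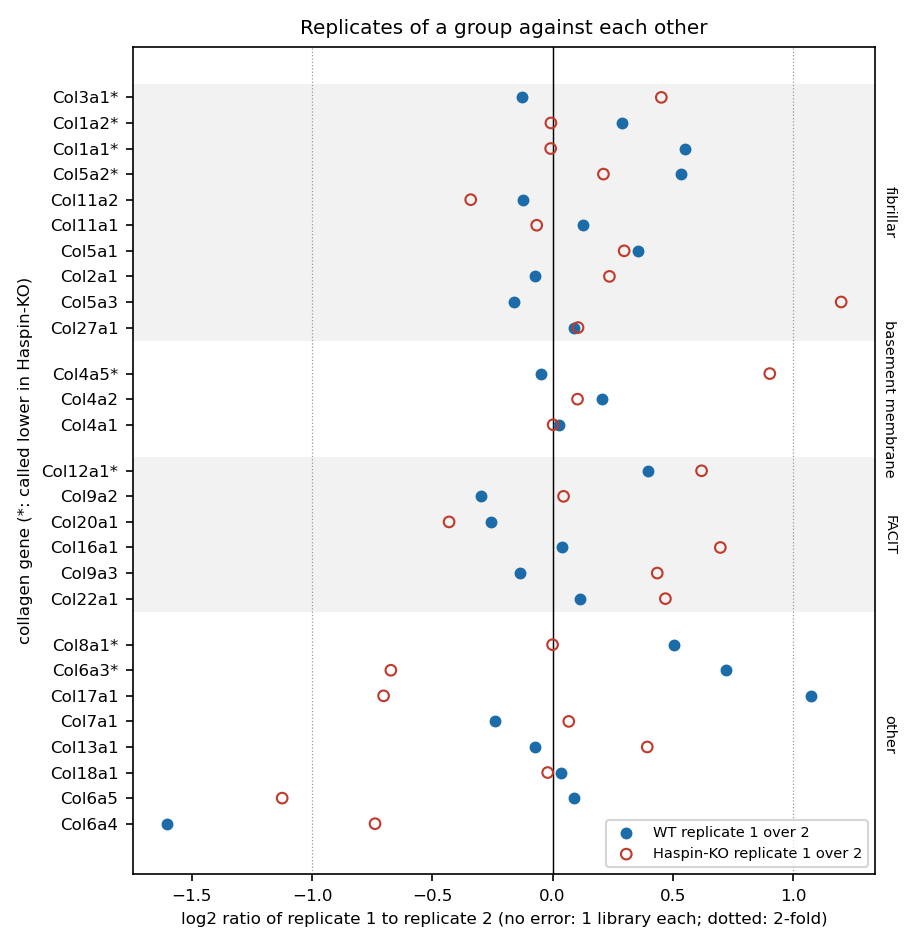
Log2 ratio of replicate 1 to replicate 2 for WT (filled) and for Haspin-KO (open) for the 27 collagen genes tested, with asterisks at the 8 genes called lower and dotted lines at a 2-fold difference. Filled points of Col1a1, Col5a2, Col12a1, Col1a2, Col6a3 and Col8a1 lie between 0.29 and 0.72, and 2 genes in each group pass the dotted lines.

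Genes of collagen processing and of collagen binding were set beside the collagen genes. Of 30 genes that modify, fold, secrete, cleave or cross-link collagen, 29 were tested, of which 3 were called lower and 0 higher, with a median log2 fold change of -0.23 and 25 of 29 below 0. Over all genes tested, 0.501% were called lower and 50.6% were below 0. DESeq2 called 2 lower of the 24 to which it gave an adjusted p. DESeq2 and an unadjusted p under 0.05 with a fold change over 2 gave 0 higher as well. The genes of the list with the most counts were not called, namely P4hb, a subunit of prolyl 4-hydroxylase (log2 fold change -0.08), Colgalt1, a collagen galactosyltransferase (-0.21), and Ppib, a prolyl isomerase of the endoplasmic reticulum (-0.18). The 3 called genes, named after their values were seen, were Lox, Loxl1 and Loxl2, which encode lysyl oxidases, enzymes that cross-link collagen and elastin. Loxl3 (146 and 93 counts against 56 and 48, adjusted p = 0.115) and Loxl4 (adjusted p = 0.598) of the same family were not called. Lox had 1215 and 657 counts in WT cells and 0 in both Haspin-KO libraries (adjusted p = 2.12e-05). Loxl2 had 235 and 128 counts against 2 and 6 (log2 fold change -4.99, adjusted p = 0.000565), and Loxl1 had 72 and 42 against 7 and 9 (-2.35, adjusted p = 0.0171). These called genes had at most 9 counts in each Haspin-KO library and passed the filter through their WT counts. All 3 were higher in WT replicate 1 than in WT replicate 2, with a median log2 ratio of 0.54, and all 3 ratios were below the 95th percentile of all genes tested (0.56). Of 10 collagen receptors, 7 were tested and edgeR called 0, with a median log2 fold change of -0.11 and 1 gene (Itga11) at an unadjusted p under 0.05. Itga11 had 23 and 11 counts in WT cells and 2 and 1 in Haspin-KO cells (log2 fold change -2.95, adjusted p = 0.0586 in edgeR). It passed the filter through its WT counts. DESeq2 called 0 of the 3 receptors to which it gave an adjusted p. Itgb1, the integrin chain shared by the collagen-binding integrins, and the discoidin domain receptors Ddr1 and Ddr2 had the most counts and log2 fold changes of 0.08, -0.11 and -0.19.

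Lists of markers of other cell types were set beside the collagen genes. Of 20 fibroblast markers, 15 were tested, of which 6 were called lower (0.501% of all genes tested were) and 0 higher, with a median log2 fold change of -0.51. DESeq2 called 4 lower of the 13 to which it gave an adjusted p, and 0 were higher by DESeq2 or at an unadjusted p under 0.05 with a fold change over 2. Ddr2 is on this list and on that of the receptors. The list summed to 1815 and 1934 CPM in WT cells and to 1815 and 1827 CPM in Haspin-KO cells, most of it from Fn1, and without Fn1 to 283 and 271 CPM against 189 and 211 CPM. Fn1 and Fstl1, which had the most counts, were not called (log2 fold changes 0.02 and -0.01), whereas Acta2, smooth muscle actin, had 1215 and 716 counts in WT cells and 44 and 85 in Haspin-KO cells (-3.43, adjusted p = 0.000183). The other genes called lower, named after their values were seen, were Cd44, Postn, Prrx1, Tagln and Thbs2, and the 6 genes together had 83.9 and 61.7 CPM in WT cells and 7.37 and 8.60 CPM in Haspin-KO cells. Of these, Postn (171 and 77 counts in WT cells), Prrx1 (40 and 31) and Thbs2 (106 and 78) had at most 4 counts in a Haspin-KO library and passed the filter through their WT counts. Pdgfrb passed the threshold on p but not that on fold (log2 fold change -0.85, adjusted p = 0.0392). The remaining markers tested were not called. Their log2 fold changes were -0.19 (Ddr2), -0.10 (Fbn1), -0.01 (Mmp2), -0.18 (Twist1), -0.51 (Thy1) and 0.30 (Pdgfra). S100a4, with 22 and 9 counts in WT cells and 0 in both Haspin-KO libraries, was not tested, and Dcn, Fap, Lum and Twist2 had at most 4 counts in any library. Of the 15 markers tested, 12 were higher in WT replicate 1 than in WT replicate 2, and the median log2 ratio was 0.42 over the 6 called genes. Among these 6, Postn (0.80) and Tagln (0.59) lay above the 95th percentile of all genes tested (0.56), and the others lay below it. The part of fibroblasts in the fall of the 8 collagen genes was not tested.

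Of 12 markers of parietal and primitive endoderm, cells that make much type IV collagen, 8 were tested and edgeR called 0. DESeq2 called 0 of the 5 to which it gave an adjusted p. The median log2 fold change was 0.02. In edgeR, 2 genes had an unadjusted p under 0.05, of which Cubn was over 2-fold higher (log2 fold change 1.36). The list summed to 990 and 1027 CPM in WT cells and to 1022 and 1041 CPM in Haspin-KO cells, most of it from Lamc1, and without Lamc1 to 204 and 209.9 CPM against 189.6 and 179.5 CPM. The laminin genes Lamc1, Lama1 and Lamb1 had the most counts and log2 fold changes of 0.08, -0.25 and -0.08, beside the 0.40 and 0.33 of Col4a1 and Col4a2.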

How the data were processed

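Total RNA of E14 mESCs (2 WT and 2 Haspin-KO libraries) was extracted with TRIzol, and libraries were made with a SMARTer mRNA kit. Reads were trimmed by the authors (Cutadapt v1.9.1) and aligned to mm10 (HISAT2 v2.0.1), and raw counts per gene were deposited without normalization. The deposited FPKM values could be recomputed from counts, exonic lengths and library totals in 100% of cases within rounding. HTSeq (v0.6.1) and DESeq2 are listed in the submitters' processing notes, and the strand setting, the handling of reads with several matches and the annotation release are not given in the sources used here.

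From the counts of all genes, edgeR (4.0.16, R 4.3.3) was run with filterByExpr, TMM normalization and its quasi-likelihood test, with no block. SE values were obtained by dividing a log2 fold change by the root of its F statistic, and CPM values of genes and lists use TMM-scaled totals, while the collagen total and the floor in CPM use the raw totals. Intervals of fold changes use the t quantile of edgeR's degrees of freedom, and counting intervals are exact binomial intervals at 95%. Replicates of each group differed by more than sampling noise. The alternatives were DESeq2 (1.42.0), DESeq2's size factors or library totals as scaling, no filter, a mean of at least 1 CPM, for the WT libraries over 3 counts in at least 1 of them, thinning to the smallest total, the replicate number as a block and leaving out each library. The test was tested on simulated data. All collagen genes were named, with up to 3 genes of each other list by the rule (those with the most counts). Further genes of these lists (lysyl oxidases, Itga11, Cubn and fibroblast markers other than Fn1, Fstl1 and Acta2) were named after their values were seen. The members and lists were chosen with earlier results of these data known. Library totals ranged from 14207828 to 21834847 counts, and values of genes with a few counts carry wide counting intervals.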

Additional observations from a re-analysis of the deposited data

How the results depend on the processing

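The 8 collagen genes called lower were the same 8 with DESeq2's size factors, library totals, thinning, the replicate block and without either Haspin-KO library, and 4 fibrillar genes were called under every alternative. DESeq2 called 5 collagen genes lower, 0 of them basement membrane genes and 0 other collagens, because Col4a5, Col6a3 and Col8a1 got no adjusted p, as did all but 15 collagen genes. With no filter, 9 were called lower and 1 higher. With a mean of at least 1 CPM, 1 other collagen was lower, and 1 gene was over 2-fold apart between the WT libraries. With 1 library left out, where a lone library is assumed to vary like the other group, 6 to 8 collagen genes were lower and 0 to 2 higher, with 0 to 1 basement membrane gene and 1 to 2 other collagens lower, and the median log2 fold change was -0.53 to -0.27. Over all genes, the counts called lower and higher were 78 and 51, against 167 and 240 with the block, 44 and 47 with DESeq2, 140 and 125 with no filter, 37 and 23 without WT replicate 1, 43 and 17 without WT replicate 2, 150 and 59 without Haspin-KO replicate 1 and 109 and 157 without Haspin-KO replicate 2. Col16a1, Col9a3 and Col5a3, none of them called, changed sign when a library was left out. The cause of these changes was not tested, other than where fewer genes or libraries entered.

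The replicate numbers come from the labels, which do not say that same-numbered libraries belong together. The differences between replicates 1 and 2 in WT and in Haspin-KO correlated with r = 0.289 across 15580 genes, which are not independent. With the block, 8 collagen genes were lower and 1 (Col6a4) was higher, and no other collagen call changed. The block left 1 residual degree of freedom. With it, edgeR's prior degrees of freedom were infinite, against 7.42 without it. The variance of each gene was then taken from the trend over all genes, so p-values with the block do not measure a gene's own spread. Depth limits the 17 collagen genes that were not tested and the fold changes of Col3a1, Col6a3, Col8a1 and Col12a1.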
